A study of Homo sapiens with 30 samples.

Results

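The subunits of respiratory complexes I, II and III that are encoded in the nucleus were followed in A375 cells, a line of BRAF-mutant human melanoma, exposed to MLN4924. This compound (pevonedistat) inhibits the enzyme that activates NEDD8, so that cullin-RING ubiquitin ligases lose the modification they need for activity. Members were the genes whose single annotated symbol starts with NDUFA, NDUFB, NDUFC, NDUFS, NDUFV or UQCR, or is one of the SDH subunit genes. Assembly factors (8 NDUFAF genes), 3 antisense or divergent transcripts and pseudogenes were left out. This gave 42 of the 19775 genes measured, read by 85 probe sets: 33 genes of complex I, 3 of complex II (SDHA, SDHC and SDHD) and 6 of complex III. Some genes with such symbols, among them SDHB, NDUFA4 and UQCRFS1, were not analysed here.

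Complex I takes electrons from NADH and pumps protons across the inner mitochondrial membrane. Its N module holds the flavin that accepts electrons, its Q module passes them to ubiquinone, and its membrane arm moves the protons. Complex II is succinate dehydrogenase, which also works in the citrate cycle, and complex III carries electrons from reduced quinone to cytochrome c. A few further subunits of complexes I and III are encoded in mitochondrial DNA and were not analysed here.

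Cells received 0.065% DMSO, the vehicle, or 650 nM MLN4924 for 1, 2, 4, 8 or 24 h, and each of the 10 groups had 3 arrays (Affymetrix HG-U133 Plus 2.0). RNA came from whole cultures of 1 line, so fewer cells of a kind and less RNA per cell cannot be told apart. The labels do not say that the 3 arrays of a group came from separate cultures, and p-values then measure only the spread between these samples. Array medians ran from 32.6 to 44 signal units, and the ACTB 3' to 5' signal ratio, a sign of RNA integrity, from 1.144 to 1.744. All 42 members had a mean level above the median of all genes, and 41 were among the 4944 genes with the highest levels. Of the melanocyte markers, SOX10 (305 to 1126), MITF (222 to 382), S100B (31.8 to 1022) and S100A1 (105 to 255) had a mean level above the median of all genes. PMEL, MLANA, TYR and TYRP1, genes of pigment synthesis, did not, and neither did SOX9 (37 to 86.8).

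After 24 h of MLN4924 the subunits did not move as a block. NDUFB10, NDUFV2, NDUFA2 and SDHC fell and NDUFS3, NDUFS4, NDUFV1, SDHA and UQCRC2 rose, and these 9 genes passed the test in the same direction under all 3 ways of scaling the arrays. The share of all genes that did so under all 3 was not counted, so the 9 cannot be set against a background. Of the 9, only NDUFB10, NDUFV2 and NDUFS3 kept their call under every other change of the processing that was tried. In the quantile-normalized fit 5 members rose and 11 fell (limma, adjusted p under 0.05), so 38.1% of members were called against 34.0% of all genes (15.9% higher and 18.1% lower). The split turned with the scaling: it was 6 higher and 6 lower with the signals as deposited, and 7 higher and 4 lower with arrays centred on their medians. Over all genes it was 3137 higher and 3577 lower in the quantile-normalized fit, 3002 and 3805 as deposited, and 3584 and 3050 with centred arrays. The median member change was -0.01 on the log2 scale, beside 0.00 for all genes. As deposited it was 0.03, beside -0.02 for all genes, and with centred arrays 0.11, beside 0.05. The median size of a member's change was 0.14, against 0.20 for all genes and 0.34 for the 4944 genes with the highest levels, a background chosen after the data were seen. Of those genes 64.8% were called.

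The largest change was that of NDUFB10, a membrane-arm subunit close to the intermembrane space. Its signal at 24 h was 2563, 2369 and 2315 on the DMSO arrays and 1125, 1147 and 1291 on the MLN4924 arrays. All 3 treated arrays lay far below the vehicle arrays, and at 1, 2, 4 and 8 h the groups overlapped. The log2 change at 24 h was -1.01 ± 0.09 (SE), a ratio of 0.498 on the scale of signal plus 32, with an adjusted p of 1.45e-09 (limma).

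NDUFV2 encodes an iron-sulfur subunit of the N module and lies next to NDUFV1 in the complex. On the DMSO arrays at 24 h it read 1528, 1379 and 1470.3, and on the MLN4924 arrays 929.7, 863 and 1003. The groups did not overlap, and the log2 change was -0.63 ± 0.06 (SE; limma, adjusted p = 2.2e-08). NDUFV1, which carries the flavin and the site where NADH binds, went the other way. It read 1081.5, 1195 and 1143 with DMSO and 1431, 1340.4 and 1459 with MLN4924, again without overlap. Its log2 change was 0.30 ± 0.11 (SE; adjusted p = 0.0303 in limma), a call that was lost without DMSO 24 h array 1 (adjusted p = 0.109), DMSO array 3 (0.0633), MLN4924 array 1 (0.0757) or MLN4924 array 3 (0.0924). The second NDUFV1 probe set read 33.6 with DMSO and 14.6 with MLN4924, near the array medians, and the mean of both probe sets changed by -0.08.

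Among the other N-module genes, NDUFA2, an accessory subunit, fell and NDUFS4, a subunit whose loss causes Leigh syndrome, rose. NDUFA2 read 2135, 1913 and 1979.5 with DMSO and 1434.5, 1391 and 1441 with MLN4924 at 24 h. The treated arrays lay below all vehicle arrays, with a log2 change of -0.49 ± 0.08 (SE; limma, adjusted p = 2e-05). Its other probe sets were dim, at 54.6 and 14.9 on the DMSO arrays, and changed by 0.08 and 0.01, and the mean of all 3 changed by -0.13 and was not called (adjusted p = 0.288). NDUFS4 read 1131, 1063 and 1138 with DMSO and 1248, 1211.5 and 1495 with MLN4924, so that 1 treated array stood above the rest of its group. The log2 change of NDUFS4 was 0.24 ± 0.07 (SE; limma, adjusted p = 0.0149), and 0.14 without that array, MLN4924 24 h array 3 (adjusted p = 0.154). It was also lost without DMSO 24 h array 2, at 0.20 (adjusted p = 0.0689), with the mean of its probe sets (0.14, adjusted p = 0.387) and with only the arrays of the comparison (adjusted p = 0.116). NDUFS1, the largest iron-sulfur subunit of the N module, read 528, 554 and 583 with DMSO and 575, 536 and 551 with MLN4924, and its groups overlapped (log2 change 0.00 ± 0.06, SE; adjusted p = 0.994 in limma). In all, 2 of 10 measured N-module genes rose and 2 fell, under each of the 3 scalings, which is 40.0% called against 34.0% of all genes.

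**Figure D1:**
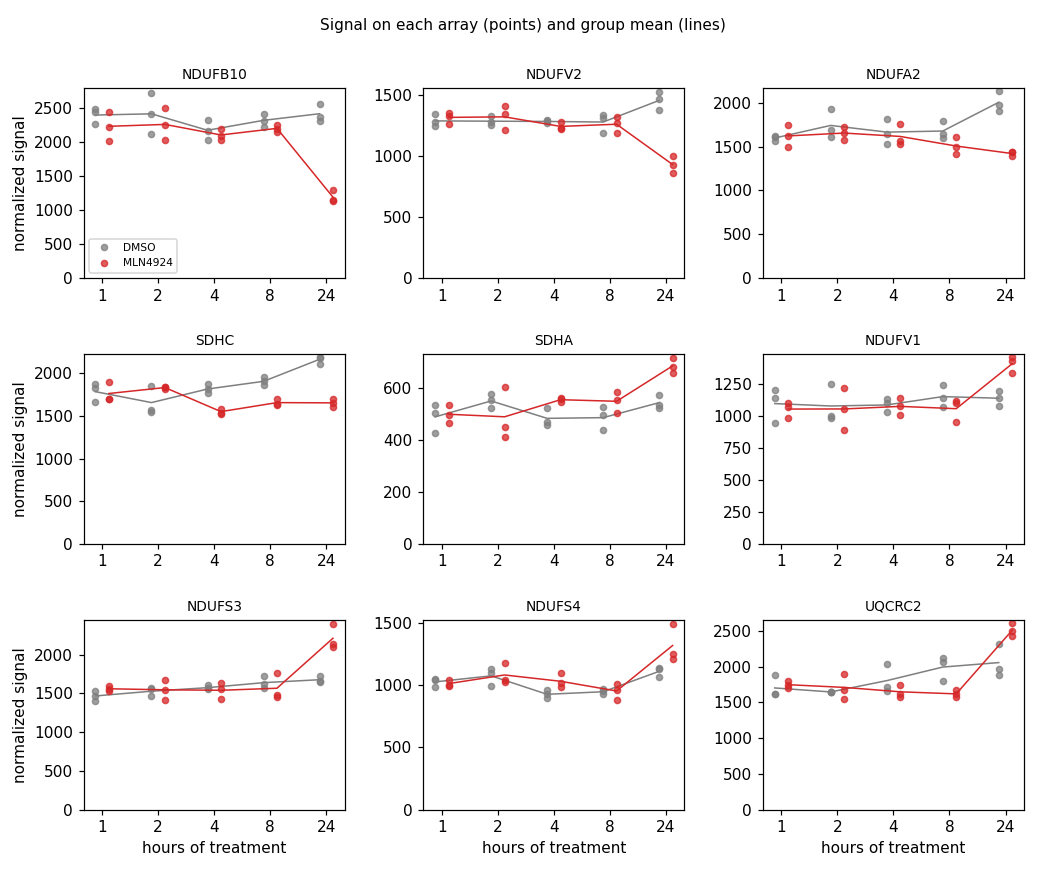
Quantile-normalized signal on each array (points) and group means (lines) against hours of treatment for the 9 members called at 24 h under all 3 scalings, DMSO in grey and MLN4924 in red. The 3 treated NDUFB10 arrays at 24 h sit between 1125 and 1291, below every DMSO array of that gene at any time.

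In the Q module NDUFS3, a core subunit near the quinone-reducing end, rose. Its 24 h signals were 1726, 1656 and 1651 with DMSO and 2138, 2099 and 2403 with MLN4924. Every treated array was above every vehicle array, and the log2 change was 0.39 ± 0.07 (SE; limma, adjusted p = 0.000137). NDUFA5, an accessory subunit of the same module, read 1961, 1893 and 1758 with DMSO and 1472, 1469.7 and 1449 with MLN4924. It fell without overlap, by 0.35 on the log2 scale (SE 0.08; limma, adjusted p = 0.0013), but was not called with arrays centred on their medians (-0.23, adjusted p = 0.059) or with the mean of its probe sets (-0.12, adjusted p = 0.295). Its second, dim probe set changed by 0.10 and was not called. The remaining Q-module members measured, NDUFA9 and NDUFS7, changed by -0.06 and 0.02 and were not called.

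Of 19 measured membrane-arm genes, 0 rose and 6 fell (limma; 8 had an unadjusted p under 0.05), or 31.6% called against 34.0% of all genes, and this direction depended on the scaling: with signals as deposited 1 rose and 2 fell, and with centred arrays 2 rose and 1 fell. NDUFB10 was the gene called in each. NDUFA3, a small single-pass subunit, read 772, 625 and 706 with DMSO and 469, 544 and 502 with MLN4924. Its groups did not overlap, with a log2 change of -0.45 ± 0.11 (SE; limma, adjusted p = 0.00304), and the centred arrays gave -0.32 (adjusted p = 0.0633). NDUFB6, NDUFB11, NDUFB4 and NDUFAB1, which is also the mitochondrial acyl carrier protein, fell by 0.32, 0.32, 0.22 and 0.12 on the log2 scale, and none of these 4 was called under either other scaling. NDUFB2 and NDUFB3 changed by 0.18 and 0.14 and were not called here, but both were called as higher with centred arrays (0.36 and 0.27), NDUFB2 also as deposited (0.28).

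In complex II the catalytic subunit and a membrane anchor moved apart. SDHA, the flavoprotein that oxidizes succinate, read 523.9, 537 and 575 with DMSO at 24 h and 661, 682 and 719 with MLN4924. The groups did not overlap, and SDHA rose by 0.32 ± 0.10 (SE, log2; limma, adjusted p = 0.0169). That call was lost without DMSO 24 h array 1 (adjusted p = 0.0627) or MLN4924 24 h array 3 (adjusted p = 0.0655). The SDHA probe set is one whose probes can match related transcripts (suffix _x_at), and pseudogenes of SDHA exist, so its signal is uncertain as to source. SDHC, which anchors the enzyme in the membrane and helps to bind quinone, read 2114, 2195 and 2183 with DMSO and 1652, 1603 and 1704 with MLN4924. SDHC fell without overlap, by 0.38 on the log2 scale (SE 0.06; limma, adjusted p = 2.37e-05). The SDHC probe set carries the suffix _x_at too, and without _x_at and _s_at probe sets SDHC changed by 0.01 (limma, adjusted p = 0.95). Another, dimmer SDHC probe set without either suffix changed by -0.50 (limma over all probe sets, adjusted p = 0.000105). SDHD, the partner anchor subunit, read 2071, 1934 and 1852 with DMSO and 2096, 2157 and 1849.5 with MLN4924. These groups overlapped, and the log2 change was 0.06 ± 0.07 (SE; limma, adjusted p = 0.617).

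In complex III UQCRC2, a core protein of the matrix side, rose at 24 h. It read 1889.5, 2315 and 1971 with DMSO and 2496, 2607 and 2433 with MLN4924. All treated arrays were above the vehicle arrays, with a log2 change of 0.29 ± 0.09 (SE; limma, adjusted p = 0.0123). The call was lost without DMSO 24 h array 1 (0.23, adjusted p = 0.0808), DMSO array 3 (0.26, adjusted p = 0.0522) or MLN4924 array 2 (0.26, adjusted p = 0.05001). It was also lost with only the arrays of the comparison. UQCRC1, the other core protein, read 1488, 1528 and 1565 with DMSO and 1507, 1529.9 and 1746 with MLN4924, and its groups overlapped (log2 change 0.06 ± 0.07, SE; adjusted p = 0.578 in limma). UQCRQ fell by 0.18 on the log2 scale in the quantile-normalized fit, and changed by -0.07 as deposited and 0.01 with centred arrays, where it was not called.

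**Figure D2:**
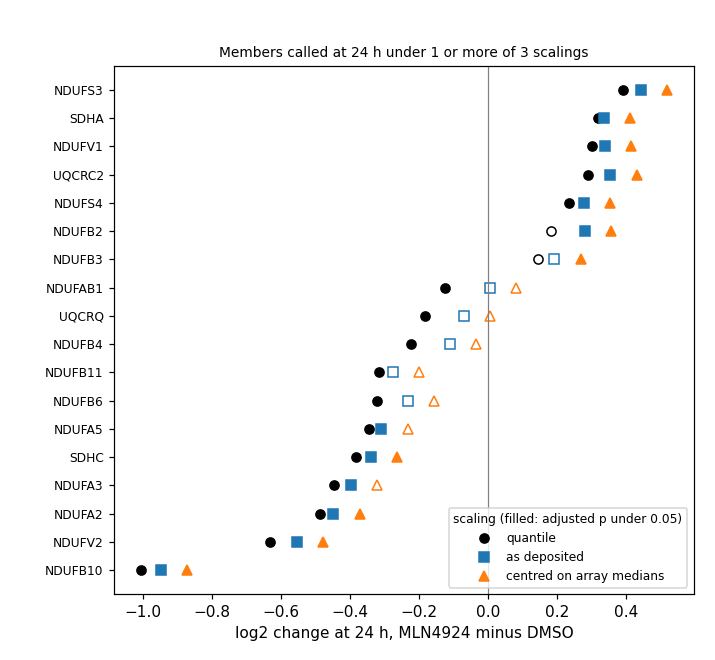
Log2 change at 24 h (MLN4924 minus DMSO) of each member called under 1 or more of 3 scalings, with quantile normalization (circles), signals as deposited (squares) and arrays centred on their medians (triangles), filled where the adjusted p was under 0.05. NDUFB10, NDUFV2, NDUFA2 and SDHC are filled on the left and NDUFS3, NDUFS4, NDUFV1, SDHA and UQCRC2 on the right for all 3 symbols, while NDUFAB1 runs from -0.12 to 0.08.

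The 16 called members were also read against the start of the experiment, with no test. On the MLN4924 arrays at 24 h, all 5 members that rose lay above every DMSO array of 1 h. Among all genes called as higher at 24 h, 72.8% did so. Of the 11 that fell, 6 lay below every DMSO array of 1 h and 5 overlapped with them, while 70.0% of all genes called as lower lay below. NDUFB10 was in the former group, with means of 2396 (DMSO 1 h), 2416 (DMSO 24 h) and 1188 (MLN4924 24 h). NDUFA3 was in the latter, with means of 530.1, 701 and 505.

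Some markers of cell identity were called at 24 h as well (limma), where 34.0% of all genes were called. Of 9 melanocyte markers 0 rose and 3 fell, and of 6 epithelial markers 2 rose and 1 fell. Of 7 fibroblast markers 0 rose and 4 fell, and of 7 blood and endothelial markers 1 rose and 0 fell. The sums at 24 h that follow give most weight to the brightest genes of each list. The summed signal of 9 measured melanocyte markers ran from 2461 to 2739 on the DMSO arrays and from 1057 to 1153 on the MLN4924 arrays. Over 6 epithelial markers it ran from 2215 to 2358 and from 4790.4 to 5074, most of it KRT18. KRT14 (44.2 to 171) and KRT8 (75 to 146) also had a mean level above the median of all genes, and KRT5 (at most 69.2), EPCAM and CDH1 (at most 21.1) did not. For 7 fibroblast markers the sum ran from 450.2 to 502 with DMSO and from 268 to 309 with MLN4924. Blood and endothelial markers (7 measured) summed to between 321 and 356 and between 275 and 375, and HBB (103 to 173) and PECAM1 (56.9 to 111) had a mean level above the median of all genes. CD3E (at most 64.5), CDH5 (at most 50.8), VWF (at most 28.1), PTPRC (at most 24.8) and CD14 (at most 17.2) did not. The ACTB ratio was alike in the 24 h groups, 1.239 to 1.346 with DMSO and 1.263 to 1.331 with MLN4924. The part of these markers in the member changes was not tested.

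Promoter sequence was examined because motifs of factors known for genes of the respiratory chain could be looked up for most members. RefSeq windows (GRCh38.p14) of 300 bases, from 250 before to 50 after the annotated start, were at hand for 38 of 42 members. The letters ATGGCGG (YY1), on either strand, were in the windows of 17 of these 38 genes, or 44.7%, against 9.15% of 15843 protein-coding genes with a window and 5.55% of all 35116 windows. Of the 19 such matches, 16 began at or after the annotated start, where the letters ATG can also open the coding sequence. CGCATGC (NRF1) was in 7 of 38 genes, or 18.4%, against 6.07% of coding genes and 3.91% of all windows. CCGGAAG (ETS factors such as GABP) was in 21.1% against 16.5% of coding genes and 10.3% of windows. AAGGTCA (ERR alpha) was in 13.2% against 4.26% and 3.92%, and TGACNNNGC (NRF2 with a small MAF) in 28.9% against 17.9% and 13.3%. Matches of ATGGCGG and TGACNNNGC overlapped in NDUFA5, NDUFA13 and NDUFS4, the 3 members with overlapping motifs.

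Stretches of 30 bases are shown for members that moved in opposite directions at 24 h, 5' to 3' on the strand of the gene, with the motif letters or their reverse complement in capitals. NDUFS3 and NDUFS4 rose, and NDUFV2, NDUFA5 and NDUFB4 fell.
NDUFS3 (YY1 letters, chr11:47579081-47579110, + strand): atctgagtaacATGGCGGcggcggcggtag
NDUFS4 (YY1 letters, chr5:53560652-53560681, + strand): cctgcagcaagATGGCGGcggtgtcaatgt
NDUFV2 (YY1 letters, chr18:9102719-9102748, + strand): gggaaggtgaacagtgtggcCCGCCATgtt
NDUFS3 (ETS letters, chr11:47578961-47578990, + strand): cggaacctccgCTTCCGGctccacgtccgc
NDUFA5 (NRF1 letters, chr7:123557957-123557986, - strand): tatgcccatcgCGCATGCgtcaatttttct
NDUFB4 (NRF1 letters, chr3:120596167-120596196, + strand): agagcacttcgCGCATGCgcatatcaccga
Genes with the YY1 letters were found among those that rose (2) and those that fell (3), and the other 12 were not called at 24 h. Of the 7 genes with the NRF1 letters, 2 fell, 0 rose and 5 were not called (limma). These counts are from the quantile-normalized fit, in which 34.0% of all genes were called, 15.9% as higher and 18.1% as lower. Among the genes counted as fallen, NDUFA5, NDUFB4 and NDUFB11 were not called with centred arrays. NDUFB4 and NDUFB11 were not called as deposited either. NDUFB10, the member of largest change, held none of the 5 motifs in its window. A match is a run of letters and was not measured as a binding site.

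Before 24 h few subunits differed from vehicle. At 1 h 0 of 42 members were called (limma; 0 with an unadjusted p under 0.05), against 0.00506% of all genes. At 2 h 0 were called (limma; 3 with an unadjusted p under 0.05), against 0.551%. At 4 h SDHC alone was called, against 3.39% of all genes: it read 1815, 1869 and 1763 with DMSO and 1584, 1528 and 1539.5 with MLN4924. Those groups did not overlap, and the log2 change was -0.22 ± 0.06 (SE; limma, adjusted p = 0.0493), but the call was lost when any 1 of the 6 arrays was left out (adjusted p from 0.0791 to 0.182). The members whose treated and vehicle arrays did not overlap numbered 3, 1, 7, 11 and 21 at the 5 times, against 9.94%, 12.2%, 20.7%, 28.0% and 44.6% of all genes.

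At 8 h 0 members rose and 5 fell (limma; 9 had an unadjusted p under 0.05 in either direction), against 15.2% of all genes called, 8.37% as higher and 6.81% as lower. This direction also depended on the scaling, with 1 higher and 2 lower for signals as deposited and 5 higher and 1 lower for centred arrays. The calls over all genes shifted as well. They numbered 1655 higher and 1347 lower in the quantile-normalized fit, 1620 and 1637 as deposited, and 2796 and 804 with centred arrays. NDUFV3, an accessory N-module subunit, was called as lower under all 3 scalings. It read 272.1, 248 and 242 with DMSO at 8 h and 176, 173 and 154 with MLN4924. The groups did not overlap, and the log2 change was -0.52 ± 0.11 (SE; limma, adjusted p = 0.00124). The call was lost with the mean of its probe sets (-0.23, adjusted p = 0.162), and its second probe set changed by 0.05. At 24 h its groups overlapped, at 234, 223 and 266 with DMSO and 235, 215 and 347 with MLN4924.

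NDUFA5 read 1716, 1867 and 1819.5 with DMSO at 8 h and 1166, 1398 and 1403 with MLN4924. It fell by 0.44 on the log2 scale (SE 0.08; limma, adjusted p = 0.00036), with no overlap, and was not called with centred arrays (-0.22, adjusted p = 0.113). UQCRC2 read 1803, 2062.5 and 2123.5 with DMSO and 1616, 1668 and 1578 with MLN4924, below the vehicle arrays where it was above them at 24 h. Its change at 8 h was -0.29 ± 0.09 (SE, log2; limma, adjusted p = 0.0245), and the call was lost under both other scalings and without DMSO 8 h array 2 (adjusted p = 0.0849), DMSO array 3 (0.114), MLN4924 array 1 (0.063) or MLN4924 array 3 (0.0803). The 8 h call of UQCRC2 was also lost with the mean of its probe sets, without _x_at and _s_at probe sets and with only the arrays of the comparison. SDHC and NDUFB5 each changed by -0.20 at 8 h (limma, adjusted p = 0.0321 and 0.0132). With centred arrays SDHC changed by 0.01 and NDUFB5 by 0.02. Both calls were lost without DMSO 8 h array 3 (adjusted p = 0.107 and 0.0587) or MLN4924 8 h array 1 (0.0895 and 0.105), and that of SDHC also without DMSO array 1 (0.0738) or MLN4924 array 3 (0.0965). Both were lost as well with signals as deposited and with only the arrays of the comparison, and that of SDHC without _x_at and _s_at probe sets.

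**Figure D3:**
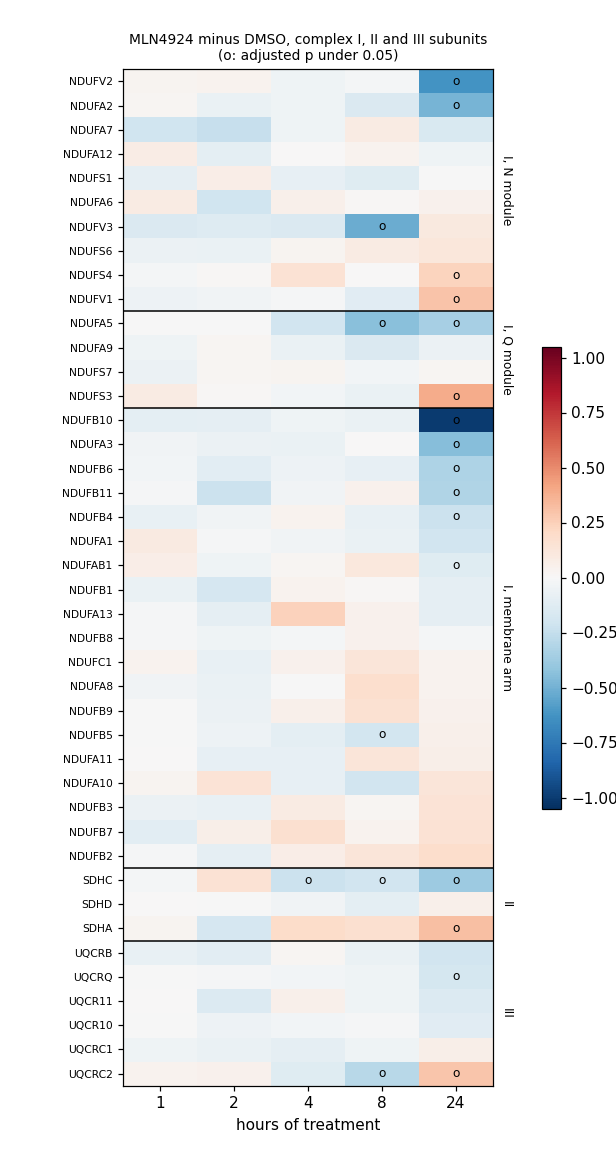
Heat map of the log2 change (MLN4924 minus DMSO, colour scale) of the 42 members at each hour of treatment, grouped by complex and module and ordered by the 24 h change, with a circle where the adjusted p was under 0.05. Calls number 0, 0, 1, 5 and 16 from 1 to 24 h, and NDUFB10 at 24 h is the darkest cell (-1.01).

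The difference between the 24 h and 8 h effects was tested directly. It was called for 8 members, 4 higher and 4 lower (limma), against 19.5% of all genes. The effect on NDUFB10 fell by 0.93 on the log2 scale (adjusted p = 4.61e-06 in limma) and that on NDUFV2 by 0.61 (adjusted p = 2.18e-05). In the opposite direction the effect rose for NDUFV3 by 0.62 (adjusted p = 0.00399), for UQCRC2 by 0.58 (adjusted p = 0.00125) and for NDUFS3 by 0.46 (adjusted p = 0.00222; all limma). For SDHC the difference was -0.18 and was not called (limma, adjusted p = 0.174). An F test over the 5 times called 11 members (limma), against 32.6% of all genes.

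For the 25 members with several probe sets, each was read separately. In the fit over all probe sets, 9 of the members' 85 were higher and 15 lower at 24 h, against 24.8% of all probe sets called, and 0 members had probe sets called in both directions (limma). At 8 h 0 were higher and 7 lower (limma), against 9.74%. Both NDUFB10 probe sets fell, by 1.01 and 0.72, and 2 of the 3 UQCRC2 probe sets rose, by 0.29 and 0.43. SDHC had 7 probe sets, of which 5 fell, with changes from -0.69 to -0.35. The other two changed by 0.01 and 0.07 and were not called. A second UQCRB probe set fell by 0.48 (limma, adjusted p = 0.000251), while the brighter one changed by -0.20 and was not called. UQCRB encodes a small subunit of complex III that helps to form the quinone pocket. For UQCR11, UQCR10 and NDUFA6 the dimmer probe set rose, by 0.92, 0.29 and 0.45, while the brightest changed by -0.14, -0.12 and 0.04 and was not called (limma).

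**Figure D4:**
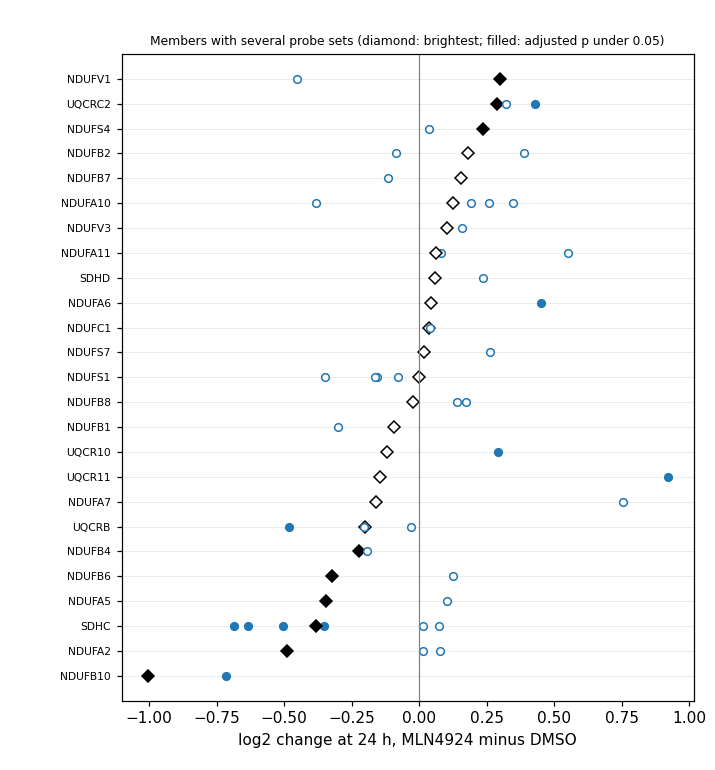
Log2 change at 24 h (MLN4924 minus DMSO) of every probe set of the 25 members with several, 1 row per gene, with a black diamond for the brightest probe set and blue circles for the rest, filled where the adjusted p over all probe sets was under 0.05. Both NDUFB10 symbols are filled on the left, and the UQCR11 circle at 0.92 lies apart from its diamond at -0.14.

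The vehicle arrays changed with time in culture. Between 1 and 24 h in DMSO, 13 members rose and 0 fell (limma; 19 had an unadjusted p under 0.05), against 18.4% of all genes called and 9.91% called as higher. Of the 4944 genes with the highest levels 17.4% were called as higher. Positive changes were seen for 37 of 42 members, with a median of 0.16 (log2) beside 0.00 for all genes. The number called was 7 as deposited and 2 with centred arrays, all higher, and positive changes were seen for 33 members in each. Of all genes, 1959 were called as higher as deposited and 1707 with centred arrays. This comparison shares its 24 h DMSO arrays with the MLN4924 comparison at 24 h. Without DMSO 1 h array 1 or DMSO 24 h array 1 the count was 7, and without DMSO 1 h array 3 it was 8.

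NDUFB5 and NDUFS1 were called in the vehicle arrays under all 3 scalings. NDUFB5, a membrane-arm subunit, read 1566.5, 1638 and 1708 at 1 h and 2123.5, 2058 and 2009.7 at 24 h in DMSO. The times did not overlap, and the log2 change was 0.33 ± 0.05 (SE; limma, adjusted p = 8e-05). NDUFS1 read 492.5, 449 and 448 at 1 h and 528, 554 and 583 at 24 h, with a log2 change of 0.25 ± 0.06 (SE; limma, adjusted p = 0.0043). NDUFA1, a small membrane-arm subunit, changed by 0.42 ± 0.10 (SE; limma, adjusted p = 0.00287), and by 0.32 with centred arrays, where it was not called (adjusted p = 0.0565). It read 2983, 3604 and 2831 at 1 h and 4642, 4214 and 3752 at 24 h in DMSO, without overlap. By complex, 2 of 10 N-module, 0 of 4 Q-module, 6 of 19 membrane-arm, 2 of 3 complex II and 3 of 6 complex III genes rose. Over that time 9.91% of all genes were called as higher. In the same order the counts were 2, 0, 3, 1 and 1 as deposited, and 1, 0, 1, 0 and 0 with centred arrays.

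**Figure D5:**
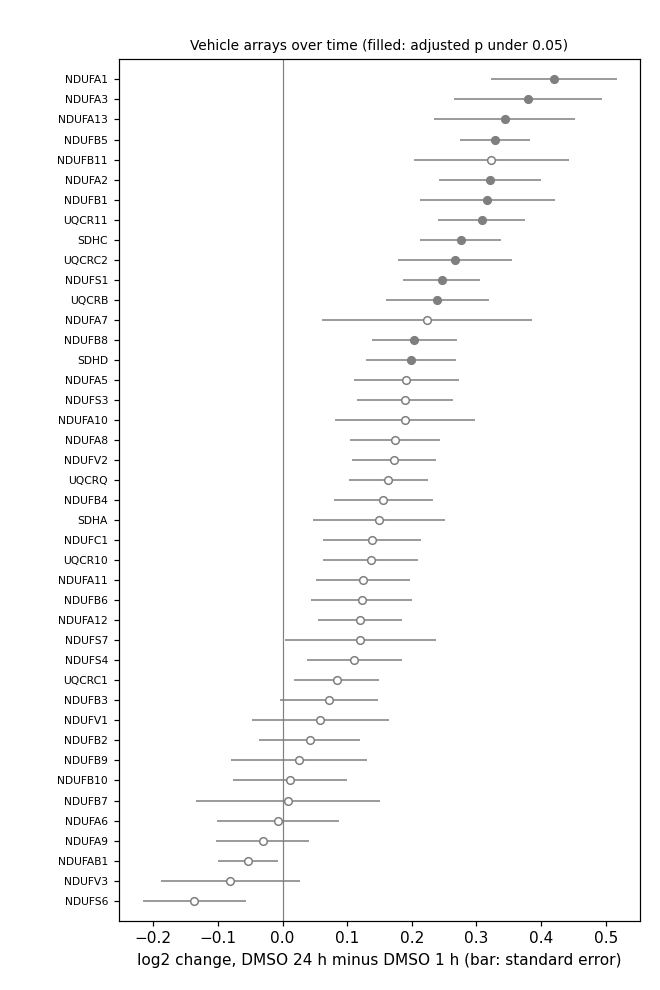
Log2 change of each of the 42 members between DMSO arrays at 1 h and 24 h, with the standard error as a bar and a filled point where the adjusted p was under 0.05. Filled points number 13 and all lie to the right of 0, with NDUFA1 at 0.42 in this quantile-normalized fit.

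Genes that act around these complexes were read from the same fit, in which 34.0% of all genes were called at 24 h (15.9% higher, 18.1% lower) and 15.2% at 8 h. Of the 4944 genes with the highest levels, 64.8% were called at 24 h. Of 16 assembly factors of complex I, which build the enzyme and do not stay in it, 9 rose and 3 fell at 24 h, or 75% called (9 and 3 as deposited, 10 and 3 with centred arrays), led by NDUFAF4 (0.79), NDUFAF5 (0.78) and NDUFAF2 (0.73). At 8 h NDUFAF4 rose by 0.41, NDUFAF2 rose by 0.28 and NDUFAF1 fell by 0.30. Of 10 assembly factors of complexes II and III, 3 rose and 3 fell at 24 h, or 60%: SDHAF2, which helps to attach flavin to SDHA, rose by 0.56, while SDHAF3 and SDHAF4 fell by 0.62 and 0.57. At 8 h LYRM7 fell by 0.45 and UQCC3 rose by 0.30.

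Among 13 genes for CYC1, cytochrome c and quinone synthesis, 4 rose and 2 fell at 24 h, or 46.2%: COQ8A rose by 1.02, COQ8B fell by 0.78 and COQ5 fell by 0.59. At 8 h COQ8A rose by 0.55, and COQ2 and CYC1 fell by 0.38 and 0.32. Of 15 complex IV genes, 2 rose and 5 fell at 24 h, or 46.7%, with COX5B at -0.59, COX7A2L at 0.43 and COX7A2 at -0.31. That split was 3 and 1 as deposited and 4 and 1 with centred arrays. For 18 ATP synthase genes it was 3 and 3, or 33.3%, and 5 and 2 under both other scalings, with ATP5F1E at -0.78, ATP5IF1 at -0.52 and ATP5PB at 0.25. At 8 h 0 genes of either list were called (limma; 1 and 2 had an unadjusted p under 0.05), and 2 complex IV genes were called as higher with centred arrays.

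Enzymes of the citrate cycle and of pyruvate dehydrogenase were listed together (14 measured). At 24 h 6 of them rose and 4 fell, or 71.4%, led by SUCLG2 (-1.46), PDHB of pyruvate dehydrogenase (-0.90) and SUCLA2 (-0.65). The largest increase in this list was 0.61. At 8 h SUCLG2 and IDH3G fell by 0.52 and 0.39, and DLST rose by 0.35. Of 14 regulators of mitochondrial gene expression, 6 rose and 2 fell at 24 h, or 57.1% (6 and 2 as deposited, 7 and 0 with centred arrays), led by TWNK, the mitochondrial DNA helicase (1.07), GABPB1 (1.06) and PPARGC1B (0.76). At 8 h 6 of them rose and 1 fell, or 50%: PPARGC1B rose by 0.80, GABPB1 rose by 0.62 and TFB1M fell by 0.66. Over the same hours in DMSO, 1 of these regulators rose and 6 fell between 1 and 24 h, where 18.4% of all genes were called.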

How the data were processed

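The authors deposited intensity values of 54675 probe sets on 30 arrays. Affymetrix Expression Console made them, per the submitters' processing notes, and its version is not given in the sources used here. Every array had the same mean after trimming 2% at each end (150.02). Arrays were quantile-normalized and transformed as log2(signal + 32), which compresses changes of dim probe sets. Each gene was read by its brightest probe set among those annotated to it alone. limma 3.58.1 in R 4.3.3 estimated the 10 group means together (20 residual degrees of freedom), with Benjamini-Hochberg adjustment over 19775 genes and two-sided tests. The fit was tested on simulated data. Members and gene lists were chosen with earlier results of these data known.

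Named with values were, at each time, up to 6 called members of largest change in each direction, a short set of subunits (SDHA, SDHC, SDHD, NDUFS1, NDUFV1, UQCRC1, UQCRC2) and up to 3 called genes per list at 8 and 24 h. NDUFB2, NDUFB3, NDUFB4, NDUFB6, NDUFB11, NDUFAB1, UQCRQ, UQCRB, UQCR10, UQCR11, NDUFA6, NDUFA9, NDUFS7 and, for the vehicle arrays, NDUFA1 and NDUFB5 were named after their values were seen. Alternatives covered the scaling, the added constant, the choice of probe set, the arrays fitted, a replicate block and leaving out each array. The 3 arrays per group limit the precision.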

Additional observations from a re-analysis of the deposited data

Results flagged for a closer look

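For 8 members the effect of MLN4924 at 24 h differed from that at 8 h by a test of the difference itself (limma). The log2 differences were -0.93 for NDUFB10, -0.61 for NDUFV2, -0.34 for NDUFA2, -0.23 for NDUFAB1, 0.25 for NDUFB5, 0.46 for NDUFS3, 0.58 for UQCRC2 and 0.62 for NDUFV3. 2 further probe sets, which carry several symbols and were left out of the gene fit, differed between treated and vehicle arrays (limma over all probe sets). A probe set shared by NDUFC2 and its readthrough transcript changed by 0.30 at 8 h and 0.46 at 24 h, while another probe set of the same symbols changed by -0.07 at 24 h and was not called. A probe set shared by SDHA and its pseudogenes changed by 0.34 at 8 h and 0.30 at 24 h.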

How the results depend on the processing

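Of 17 named member calls, 3 were kept under every alternative run (NDUFS3, NDUFB10 and NDUFV2 at 24 h) and 14 were lost or turned under 1 or more. The single call at 4 h became 0 with 1 added to the signal, with signals as deposited, with centred arrays, with probe sets averaged per gene, without _x_at and _s_at probe sets, with only the arrays of the comparison, with the replicate block, and without each of the 6 arrays (0 to 0). Calls at 8 h (5) became 3 as deposited, 3 with the mean of probe sets, 2 without _x_at and _s_at probe sets and 2 with only the arrays of the comparison, and ran from 2 to 5 with 1 array left out. Calls at 24 h (16) became 10 with only the arrays of the comparison and ran from 10 to 14 with 1 array left out, the 10 being without DMSO array 1 or MLN4924 array 3. The 8 changes from 8 to 24 h became 5 with centred arrays and 5 without _x_at and _s_at probe sets, and ran from 6 to 9 with 1 array left out. The 13 vehicle calls became 7 as deposited, 2 centred, 6 with the mean of probe sets, 6 without _x_at and _s_at probe sets and 5 with only the arrays of the comparison, and ran from 7 to 11. F test calls (11) became 7 without _x_at and _s_at probe sets. The median member change at 1 h was 0.0655 with centred arrays. At 4 h it was 0.0261 as deposited, 0.0853 centred and 0.0046 with the mean of probe sets, and -0.038 to 0.0196 with 1 array left out. At 8 h it was 0.068 as deposited and 0.186 centred. At 24 h it was 0.0306 as deposited, 0.1065 centred, 0.0401 with the mean of probe sets and 0.0554 without _x_at and _s_at probe sets, and -0.044 to -0.0032 with 1 array left out. With centred arrays the median of all genes was 0.036 at 1 h, 0.036 at 4 h, 0.084 at 8 h and 0.051 at 24 h. As deposited the median of all genes was -0.023 at 4 h, -0.034 at 8 h and -0.025 at 24 h. Values that turned sign were SDHC (0.0108) and NDUFB5 (0.0197) at 8 h with centred arrays, NDUFV1 at 24 h (-0.077) with the mean of probe sets, and NDUFV3 at 8 h (0.0525), NDUFA2 at 24 h (0.0758) and SDHC at 24 h (0.013) without _x_at and _s_at probe sets. Treated and vehicle arrays of the same hour and replicate number were correlated after group means were removed, and 0 of 15 pairs exceeded 0.1 (from -0.11 to 0.07). This cannot show what a replicate number marks, which the labels do not say. With the replicate block the counts were 0 at 1, 2 and 4 h, 5 at 8 h, 15 at 24 h, 9 for the change from 8 to 24 h, 13 for the vehicle and 10 for the F test. Leaving out DMSO 2 h arrays 1 and 2, whose ACTB ratios were the highest, was chosen after seeing the data and gave 0 calls at 2 h (limma). The cause of these differences was not tested.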
